A study of Rattus norvegicus with 12 samples.

Results

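Toll-like receptors are the sensors with which innate immune cells, and some epithelial and stromal cells, recognise microbial products and molecules released from damaged tissue. The set described here comprises 10 genes given by name: the receptors Tlr1, Tlr2, Tlr3, Tlr4, Tlr6, Tlr7, Tlr8 and Tlr9, the co-receptor Cd14 and the adaptor Myd88. They were chosen by symbol, and a gene was measured where a probe set of the array carried that symbol alone. Each of 8 genes had 1 such probe set, among 18166 genes in all. Tlr8 and Tlr9 were not analysed here, because the platform gene table used for names lists no probe set under them.

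The study set 6 rat bladder samples taken after a sham operation against 6 from bladders denervated 10 days earlier by freezing the ganglia on both sides. All animals were female Sprague Dawley rats of about 3 months, and all had surgery. The time between sham surgery and sampling is not given in the labels. Each sample was hybridised to 1 array. The labels do not state that the 6 samples of a group are 6 animals, so p-values measure the spread between these samples, which may be technical in part.

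Toll-like receptors are membrane proteins with an outer or luminal ligand-binding part and a cytoplasmic signalling domain. Those at the cell surface bind lipopeptides (Tlr2 paired with Tlr1 or Tlr6) or lipopolysaccharide (Tlr4 with Cd14 and Ly96), and those in endosomes bind nucleic acids (Tlr3, Tlr7, Tlr8, Tlr9). All of them except Tlr3 signal through Myd88 to IRAK kinases, NF-kappaB and interferon regulatory factors, which switch on cytokine genes. In the bladder these receptors are known mainly for the defence against urinary tract infection.

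The promoter windows of 4 members are shown because these genes are the largest rises (Tlr1, Tlr7), the lipopeptide partner of Tlr1 (Tlr2) and the shared adaptor (Myd88). They are RefSeq windows of assembly GRCr8, each of 300 bases from 250 before to 50 after the annotated start. Capitals mark matches on either strand to 4 short motifs: GAGGAA, the core bound by the myeloid factor PU.1, GGGANTTCC, a form of the kappaB site, GAAANNGAA, a form of the interferon response element, and TTCNNNGAA, the GAS site of STAT factors.
Tlr1 at chr14:43747571-43747870, plus strand: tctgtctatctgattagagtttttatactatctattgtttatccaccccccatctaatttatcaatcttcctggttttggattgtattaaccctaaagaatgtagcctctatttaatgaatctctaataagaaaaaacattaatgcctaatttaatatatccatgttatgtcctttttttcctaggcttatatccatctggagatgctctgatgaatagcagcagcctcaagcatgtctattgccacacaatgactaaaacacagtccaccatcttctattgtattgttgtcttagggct
Tlr7 at chrX:30644176-30644475, plus strand: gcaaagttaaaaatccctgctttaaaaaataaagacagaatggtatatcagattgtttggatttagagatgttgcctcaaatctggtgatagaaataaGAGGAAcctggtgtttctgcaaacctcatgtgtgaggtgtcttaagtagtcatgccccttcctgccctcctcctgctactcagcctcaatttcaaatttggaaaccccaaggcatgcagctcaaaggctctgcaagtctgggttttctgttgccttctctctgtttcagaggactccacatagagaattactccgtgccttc
Tlr2 at chr2:171504508-171504807, minus strand: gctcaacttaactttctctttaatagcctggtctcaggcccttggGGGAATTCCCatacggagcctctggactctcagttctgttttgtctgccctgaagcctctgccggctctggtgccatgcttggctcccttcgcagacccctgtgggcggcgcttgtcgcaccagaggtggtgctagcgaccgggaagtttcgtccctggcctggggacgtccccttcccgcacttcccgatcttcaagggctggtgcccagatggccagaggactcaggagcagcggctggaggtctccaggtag
Myd88 at chr8:127956181-127956480, minus strand: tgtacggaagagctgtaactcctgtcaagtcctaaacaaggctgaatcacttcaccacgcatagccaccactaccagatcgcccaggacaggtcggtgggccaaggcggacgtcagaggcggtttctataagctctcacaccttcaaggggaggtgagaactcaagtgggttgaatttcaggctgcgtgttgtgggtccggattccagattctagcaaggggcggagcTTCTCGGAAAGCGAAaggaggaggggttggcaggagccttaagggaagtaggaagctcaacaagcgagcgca

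All 10 genes have a window. The PU.1 core was found in 7 of them (Tlr3, Tlr4, Tlr6, Tlr7, Tlr8, Tlr9 and Cd14) and in 27.5% of all 27457 rat windows of that length. The kappaB form was found only in Tlr2, where the palindrome matches on both strands, and in 1.73% of all windows. The interferon response form was found in Tlr8, Cd14 and Myd88 (9.50% of all windows), and the GAS site in Myd88 (8.68%). In Myd88 these 2 matches overlap. The Tlr1 window held no match to the 4 motifs. These matches describe letters within the windows, and no binding was measured.

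Of the 8 measured genes 7 rose after denervation, 0 fell and 1 (Tlr4) was not called, at an adjusted p under 0.05 in limma over all genes. Among all 18166 genes 11.9% were called higher and 16.9% lower. Median change was 0.67 over the 8 genes and -0.04 over all genes, as log2 differences of group means. For 5 of the 8 genes the lowest denervated array exceeded the highest sham array (Tlr1, Tlr2, Tlr6, Tlr7 and Myd88), a pattern that 5.76% of all genes showed. When the test itself required more than a 1.2-fold change (limma's treat), 3 of 8 were called higher (Tlr1, Tlr2 and Tlr7), against 4.16% of all genes. The calls of Tlr3 (adjusted p = 0.282), Tlr6 (0.0844), Cd14 (0.137) and Myd88 (0.308) were lost by that test. In whole tissue, more cells that carry a transcript and more transcript per cell cannot be told apart.

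**Figure D1:**
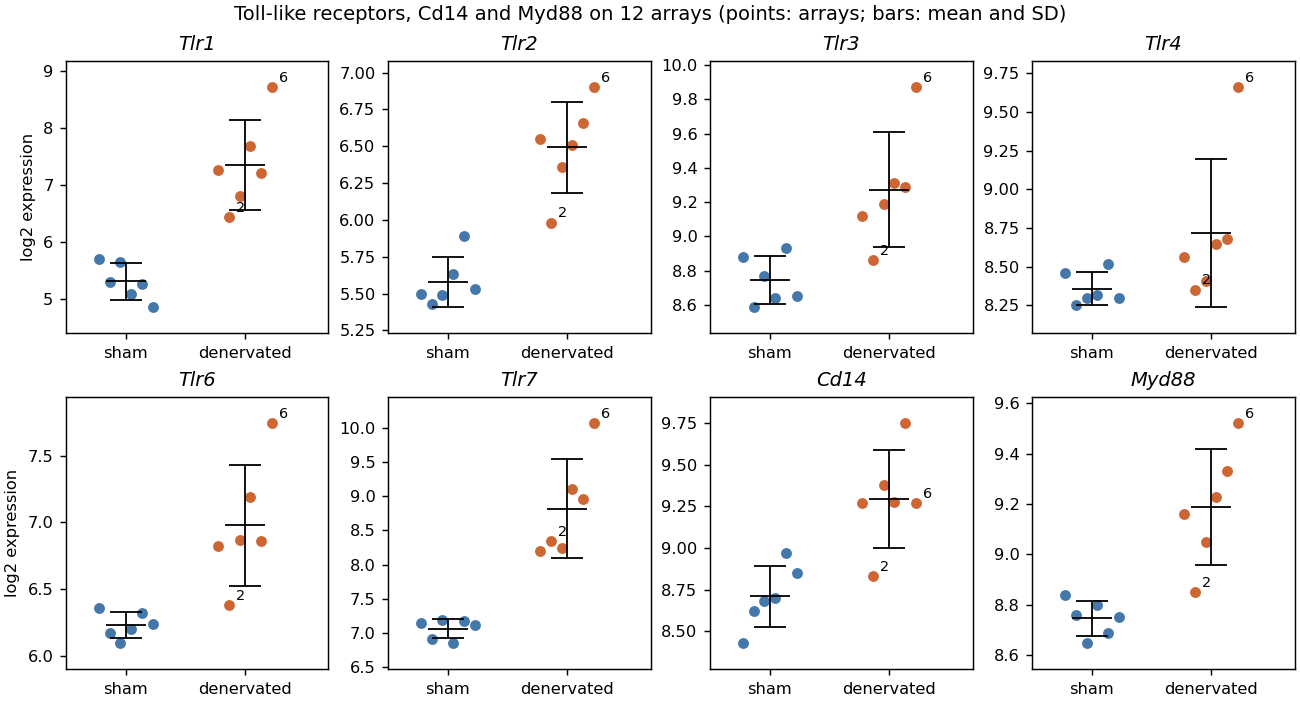
Expression of the 8 measured genes (log2, vertical axis, a scale of its own in each panel) in 6 sham and 6 denervated arrays; points are arrays, bars mean and SD, and the digits mark denervated replicates 2 and 6. The groups are apart for Tlr1, Tlr2, Tlr6, Tlr7 and Myd88 and overlap for Tlr3, Tlr4 and Cd14, and denervated replicate 6 is highest in all panels but that of Cd14.

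Tlr1, which pairs with Tlr2 to bind triacylated bacterial lipopeptides, changed most. Its log2 values ran from 4.86 to 5.70 (median 5.27) in sham arrays and from 6.43 to 8.72 (median 7.24) in denervated arrays. The lowest denervated array, replicate 2, was thus above the highest sham array. The mean went from 5.31 ± 0.32 to 7.36 ± 0.79 (SD, n = 6 each), a rise of 2.05 ± 0.31 (SE) or 4.14-fold with an adjusted p of 0.000472. All 6 sham values of Tlr1 lay below the median of all probe sets on their array. Signal over background is unknown there, so the size of the fold is uncertain.

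Tlr2, the common partner of the lipopeptide-binding pairs, ran from 5.43 to 5.89 (median 5.51) in sham and from 5.98 to 6.90 (median 6.53) in denervated arrays on the log2 scale. The gap between the groups was narrow and was set by denervated replicate 2 at 5.98 and sham replicate 5 at 5.89. Tlr2 rose by 0.91 ± 0.13 (SE, n = 6 per group), 1.88-fold, with an adjusted p of 0.000393. In 5 of the 6 sham arrays it was below the array's median.

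Tlr6, which pairs with Tlr2 for diacylated lipopeptides, ran from 6.10 to 6.36 (median 6.22) in sham and from 6.38 to 7.74 (median 6.87) in denervated arrays. Denervated replicate 2 (6.38) sat just above the sham range and replicate 6 (7.74) well above the other denervated arrays. The rise was 0.75 ± 0.17 (SE, n = 6 per group), 1.68-fold, with an adjusted p of 0.00546. Tlr1, Tlr6 and Tlr10 are close copies that lie next to each other in the genome, and how far their probes share signal was not examined.

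Tlr4, the signalling receptor for lipopolysaccharide, was the measured member that did not pass the test. Its values ran from 8.25 to 8.52 (median 8.31) in sham and from 8.35 to 9.66 (median 8.60) in denervated arrays. Only 4 of 6 denervated arrays lay above the sham range, and 1 of them, replicate 6 at 9.66, stood far above the next highest at 8.68. The change was 0.36 ± 0.18 (SE, n = 6 per group; 95% interval -0.02 to 0.75; adjusted p = 0.155). Without denervated replicate 6 it was 0.17 ± 0.08 (adjusted p = 0.118). Without both denervated replicates 2 and 6, an alternative chosen after seeing the data, it was 0.22 ± 0.08 and was called (adjusted p = 0.0400).

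Cd14, the co-receptor that hands lipopolysaccharide to Tlr4 and Ly96, ran from 8.43 to 8.97 (median 8.69) in sham and from 8.83 to 9.75 (median 9.27) in denervated arrays. Sham replicate 5 (8.97) overlapped denervated replicate 2 (8.83), and the other 5 denervated arrays were above all sham arrays. Cd14 rose by 0.59 ± 0.13 (SE, n = 6 per group), 1.50-fold, with an adjusted p of 0.00464. It was the only member whose highest denervated value was not in replicate 6, which stood at 9.27, but in replicate 5 at 9.75.

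Among the endosomal receptors, Tlr7, a sensor of single-stranded RNA, ran from 6.86 to 7.19 (median 7.13) in sham and from 8.20 to 10.06 (median 8.65) in denervated arrays. The lowest denervated array was about 1 log2 unit above the highest sham array, the widest gap of the 8 genes. Tlr7 rose by 1.75 ± 0.26 (SE, n = 6 per group), 3.36-fold, with an adjusted p of 0.000486. Denervated replicate 2 (8.34) was not its lowest array, unlike for the other 7 genes. Replicate 1 was, at 8.20.

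Tlr3, a sensor of double-stranded RNA, ran from 8.59 to 8.93 (median 8.71) in sham and from 8.86 to 9.87 (median 9.24) in denervated arrays. Denervated replicate 2 (8.86) fell within the sham range, below sham replicate 1 (8.88) and 5 (8.93). Tlr3 rose by 0.53 ± 0.14 (SE, n = 6 per group), 1.44-fold, with an adjusted p of 0.0103.

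Myd88, the adaptor, ran from 8.65 to 8.84 (median 8.75) in sham and from 8.85 to 9.52 (median 9.19) in denervated arrays. The groups were apart only by the distance between sham replicate 1 (8.84) and denervated replicate 2 (8.85). Myd88 rose by 0.44 ± 0.10 (SE, n = 6 per group), 1.36-fold, the smallest called change of the set, with an adjusted p of 0.00385.

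**Figure D2:**
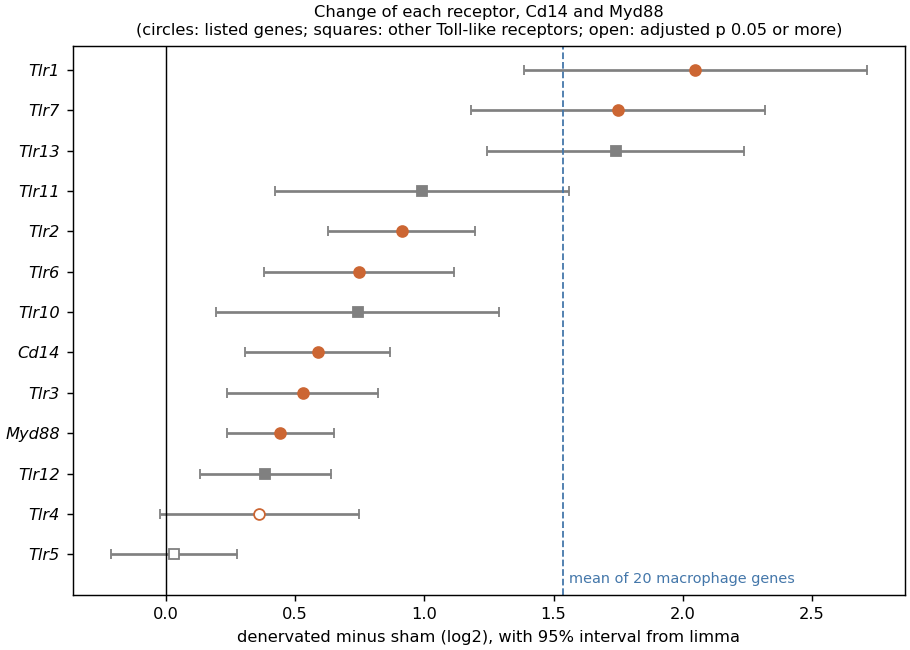
Change after denervation (log2 difference of group means, horizontal axis) with 95% limma intervals for the 8 measured genes (circles) and 5 other Toll-like receptors (squares); open symbols did not pass the adjusted p of 0.05 and the dashed line is the change of the mean over 20 macrophage genes, 1.54. Tlr1, Tlr7 and Tlr13 lie to the right of the line, and Tlr4 and Tlr5 were not called.

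Outside the set, 5 other Toll-like receptors were measured, of which 4 rose and 1 did not pass the test. Tlr13, an endosomal sensor of bacterial ribosomal RNA, rose by 1.74 ± 0.23 (adjusted p = 0.000241), with sham values of 5.43 to 5.65 and denervated values of 6.31 to 8.18. Tlr11, known for sensing a protozoan profilin, rose by 0.99 ± 0.26 (adjusted p = 0.0127), also without overlap. Tlr10 rose by 0.74 ± 0.25 (adjusted p = 0.0433) and Tlr12 by 0.39 ± 0.12 (adjusted p = 0.0252), and both overlapped the sham range. The call of Tlr10 was lost when any one of sham replicates 2 to 6, or else denervated replicate 4 or 5, was left out (adjusted p of 0.0594 to 0.0910). That of Tlr12 was lost when sham replicate 1, denervated replicate 1 or denervated replicate 6 was left out (0.0501 to 0.0565). Tlr5, the receptor for flagellin, stood at 0.03 ± 0.11 (adjusted p = 0.876). These receptors were dim, Tlr5 apart, with sham means of 4.56 to 5.50, below the array medians of 5.82 to 5.90.

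Denervated arrays differed among themselves in a similar order for most members. Replicate 6 was the highest denervated array for 7 of 8 genes and replicate 2 the lowest for 7 of 8. Against the sham mean, the median over the 8 genes was 0.13 in denervated replicate 2, 0.58 to 0.83 in replicates 1, 3, 4 and 5, and 1.31 in replicate 6. In single sham arrays this median lay between -0.10 and 0.14, so that replicate 2 fell within the sham range by this measure. Gene by gene, replicate 2 lay above all sham arrays for 5 of 8 genes, by little for Tlr2 (5.98 against at most 5.89), Tlr6 (6.38 against 6.36) and Myd88 (8.85 against 8.84). Tlr1 and Tlr7 stood farther off in replicate 2, at 1.12 and 1.27 above their sham means. Without replicate 2 or replicate 6, as without any other single array, 7 members were called higher. On the first principal component of all genes, which held 58.0% of the variance, replicate 2 lay at -5.84, between the sham arrays (-30.2 to -22.5) and the other denervated arrays (25.9 to 42.5).

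**Figure D3:**
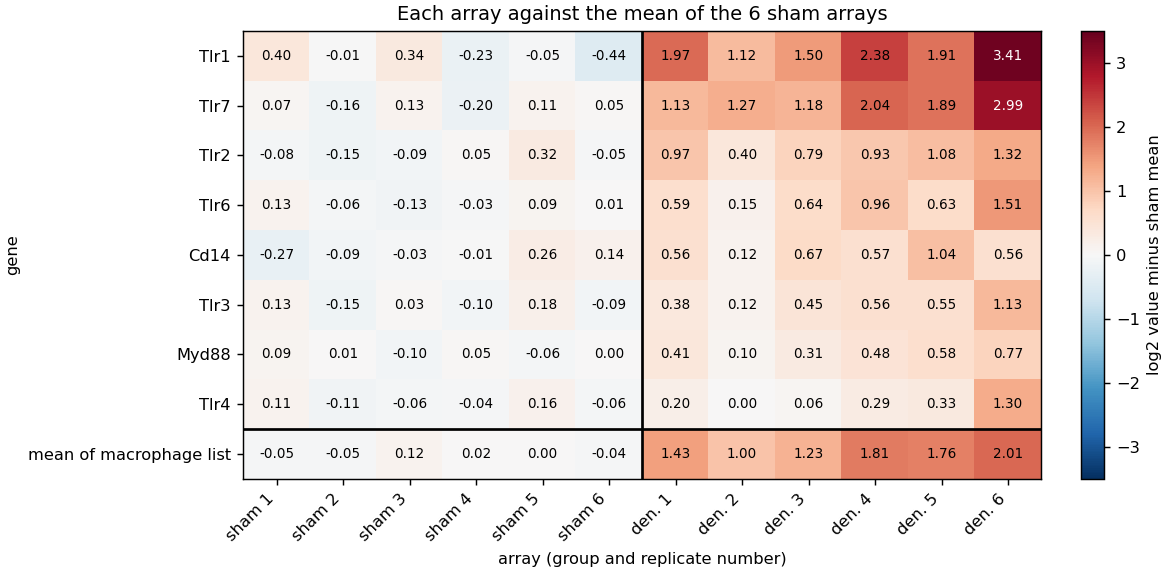
Log2 value of each measured gene on each of 12 arrays (columns) minus the mean of the 6 sham arrays, with the mean over 20 macrophage genes in the bottom row; red is above the sham mean and blue below. Denervated replicate 6 has the highest values in 7 of 8 rows of single genes and replicate 2 values of 0.00 to 0.15 for Tlr3, Tlr4, Tlr6, Cd14 and Myd88.

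Macrophage genes moved with the set. Of 20 macrophage and monocyte markers 19 were called higher, 19 showed no overlap between groups, and 0 were lower, with a mean over the list of 7.97 to 8.14 in sham and 9.02 to 10.03 in denervated arrays. Among all genes 11.9% were called higher, and 5.76% were higher without overlap. Csf1r, the receptor for the macrophage growth factor, rose by 0.74 ± 0.06 (adjusted p = 2.78e-05) and the lysosomal Cd68 by 2.20 ± 0.19 (adjusted p = 2.97e-05), while Cd163 stood at 0.21 ± 0.19 (adjusted p = 0.465). Per array, the list lay 1.00 above the sham mean in denervated replicate 2, 1.23 to 1.81 in replicates 1, 3, 4 and 5, and 2.01 in replicate 6, the same ends as for the receptors. The part of these cells in the changes of the receptors was not tested.

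Set against the mean of the macrophage list on the same array, which rose by 1.54, the members differed. The differences below are in log2, with limma over all genes, and the smallest p that an exact permutation test of 6 against 6 arrays can give is 0.00216. Tlr4 (-1.18 ± 0.19), Myd88 (-1.09 ± 0.18), Tlr3 (-1.01 ± 0.18), Cd14 (-0.95 ± 0.19), Tlr6 (-0.79 ± 0.18) and Tlr2 (-0.62 ± 0.18) changed by less than the list mean, each with that smallest exact permutation p (two-sided), and an adjusted p of at most 0.00123. That places them with most genes, since 97.6% of all genes changed by less than this mean. Genes within the list were uneven too. Cd163 (0.21), Mrc1 (0.48), Mertk (0.51) and Csf1r (0.74) changed least. The others rose by 1.15 (C1qc) to 3.83 (Lilrb4). The members below the list mean, at 0.36 (Tlr4) to 0.91 (Tlr2), thus lay within the range of the list but below most of its genes. Tlr7 differed from the list mean by 0.21 ± 0.19 (SE, adjusted p = 0.285). Tlr1 changed by more, by 0.51 ± 0.20 (adjusted p = 0.0159, exact permutation p = 0.0346), as 0.512% of all genes did. That call of Tlr1 was lost without sham replicate 6 (0.43, adjusted p = 0.0549) or denervated replicate 6 (0.33, adjusted p = 0.0711). A ratio within an array shows unequal change and not which cells carry a transcript.

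Markers of other immune cells moved less evenly. Beside the counts that follow, 11.9% of all genes were called higher and 16.9% lower. Of 9 measured T and NK cell genes 8 were higher, of 9 dendritic cell genes 6, and of 8 B and plasma cell genes 3 (Jchain, Cd22 and Blk), with 0 lower in each list. In the T and NK list Cd3d (4.28 in sham and 4.53 in denervated arrays) and Cd3e (4.55 and 5.04) were dim in both groups. They rose by 0.25 ± 0.07 and 0.48 ± 0.11, and Cd3g was not called (-0.19 ± 0.18). The other measured genes of that list rose by 0.655 (Lck) to 2.31 (Klrk1). Among them Cd4 was far brighter than Cd3d and Cd3e, at 10.52 in sham and 11.28 in denervated arrays. Which cells carried Cd4 was not tested, so its rise cannot be read as one of T cells. Means over the lists ran from 5.84 to 6.05 in sham and 6.37 to 7.75 in denervated arrays for T and NK cells, from 6.06 to 6.29 and 6.44 to 7.37 for dendritic cells, and from 5.04 to 5.17 and 5.37 to 5.92 for B and plasma cells. Median change of the B and plasma cell list was only 0.05. Jchain rose by 2.92 ± 0.51 (adjusted p = 0.00114), while Cd79a, Cd79b, Ms4a1, Cr2 and Tnfrsf17 were not called. The neutrophil granule genes Mpo (5.44 in sham and 5.30 in denervated arrays, adjusted p over 0.05) and Elane (4.29 and 4.39, likewise not called) were below array medians in both groups. Of 10 neutrophil genes 4 were higher and 0 lower. Retnlg rose by 2.49 ± 0.35 (adjusted p = 0.000354), Csf3r by 1.51 ± 0.27 (0.00141), S100a8 by 0.63 ± 0.13 (0.00275) and Mmp8 by 0.51 ± 0.16 (0.0298). The count was 7 without denervated replicate 2, and 3 without sham replicate 3 or denervated replicate 3 or 5. List means were 4.54 to 4.73 in sham and 4.89 to 5.52 in denervated arrays. Although the labels give the tissue as almost only smooth muscle, urothelial genes were bright (Upk1a at 12.7 in sham and 12.1 in denervated arrays), and 12 of 12 measured urothelial markers fell, with list means of 10.78 to 11.02 in sham and 9.95 to 10.35 in denervated arrays. Of 10 measured smooth muscle genes 6 fell and 1, Smtn, rose, with means of 11.50 to 11.67 and 10.84 to 11.47. Fibroblast genes were higher in 6 of 10 cases, endothelial genes in 4 of 8 and mast cell genes in 2 of 7 (1 without sham replicate 4), with 0 lower. Schwann cell genes fell in 5 of 8 cases, and in 4 when any single array but denervated replicate 2 was left out. Neuronal genes fell in 3 of 9 cases, with 1 neuronal gene higher. The part of any of these cells in the changes of the receptors was not tested.

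By the rule that takes the 3 genes whose values, with each group's mean taken off, correlated best over the 12 arrays with a member, Tlr1 was most like Fyb1 (Pearson r = 0.973), a signalling adaptor of blood cells, Evi2a (0.953) and Fam20b (0.950). Tlr7 was most like Dtx3l (0.986), Zc3hav1 (0.982), an antiviral RNA-binding protein, and Fcer1g (0.973), a signalling chain of Fc receptors. Tlr4 was most like Tlr11 (0.982), Mlkl (0.978), the effector of necroptosis, and Rars1 (0.977). Denervated replicate 6 stood far above the other denervated arrays for Tlr4 (9.66 against at most 8.68) and Tlr11 (7.27 against at most 5.93). Correlations of Tlr4 may thus rest largely on that array, and they were not computed without it. Replicate 6 also stood off for Tlr1 (8.72 against at most 7.68), Tlr7 (10.06 against at most 9.10), Tlr6 (7.74 against at most 7.19) and Tlr3 (9.87 against at most 9.31). The same limit holds for the correlations of these genes. Cd53, a tetraspanin of white blood cells, was among the 3 for both Tlr3 (0.970) and Tlr6 (0.953). The others were Lactb (0.977) and Il10ra (0.959) for Tlr3, Atg5 (0.947) and Pnp (0.945) for Tlr6, Pter (0.983), Hebp1 (0.939) and Gla (0.937) for Tlr2, Lsm4 (0.968), Sec61a1 (0.954) and Atp5mc1l2 (0.949) for Cd14, and Arhgap25 (0.974), Plscr1 (0.958) and Sirt7 (0.957) for Myd88. These are the best of 18165 genes over 12 arrays that share 1 normalization, and they are given as a description only. Of them Fam20b, Zc3hav1, Rars1, Lactb, Pnp, Gla, Atp5mc1l2 and Sirt7 were not called between groups.

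Other genes of the pathway fell into 10 lists with 118 measured genes, of which 58 were called higher, 4 lower and 56 not called, with a median change of 0.34. For these and the list counts below, the shares over all genes were 11.9% called higher and 16.9% lower. All 8 measured co-receptors and chaperones rose. Cd180, a receptor-like protein of B cells and macrophages, rose by 1.94 ± 0.27 (adjusted p = 0.000330) and its partner Ly86 by 1.92 ± 0.28 (adjusted p = 0.000399). Unc93b1, which carries the nucleic acid sensors to endosomes, rose by 1.28 ± 0.16 (adjusted p = 0.000162), with sham values of 7.72 to 7.87 and denervated values of 8.45 to 9.67. Lbp, which delivers lipopolysaccharide to Cd14, rose by 0.76 ± 0.22 and Ly96, the part of the Tlr4 complex that binds it, by 0.73 ± 0.18 (adjusted p = 0.0204 and 0.00734). Ly96 and Lbp overlapped the sham range through denervated replicate 2, and the groups of Cd180, Ly86 and Unc93b1 were apart.

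Of 6 genes for acidification and receptor cleavage in endosomes and lysosomes 5 rose and 0 fell. Slc15a3, a peptide and histidine carrier, rose by 1.28 ± 0.22, and the proteases Lgmn by 1.25 ± 0.12, Ctss by 1.10 ± 0.14 and Ctsl by 0.52 ± 0.11 (adjusted p of at most 0.00280). The protease Ctsb, the remaining rise, was named after its value was seen (0.51 ± 0.07). Among 5 other adaptors 2 rose. Tasl, which links Tlr7 to Irf5, rose by 1.56 ± 0.35 (adjusted p = 0.00458) and Ticam2, the bridge from Tlr4 to Ticam1, by 0.57 ± 0.13 (adjusted p = 0.00575). Tasl was dim in sham arrays, with a mean of 4.57. Tirap, the bridge from Tlr2 and Tlr4 to Myd88, stood at -0.13 ± 0.07 (adjusted p = 0.188).

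**Figure D4:**
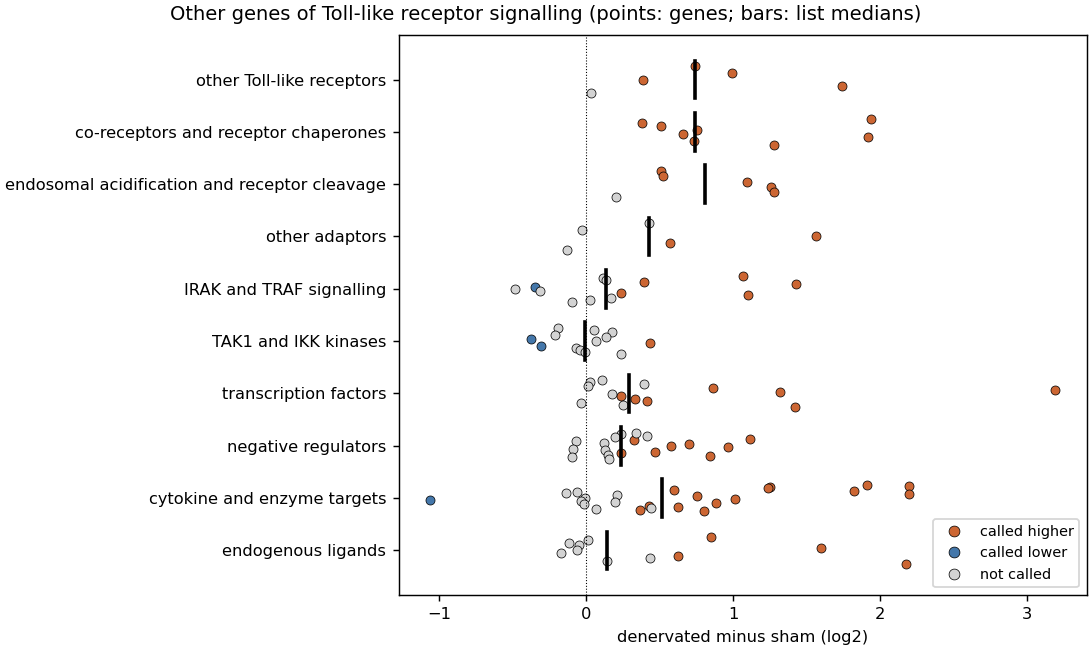
Change after denervation (log2 difference of group means, horizontal axis) of the measured genes of 10 pathway lists, 1 point per gene, with a bar at each list's median; orange was called higher, blue lower and grey not called. List medians run from -0.01 for the TAK1 and IKK kinases to 0.81 for endosomal processing, and the point at 3.19 is Irf7.

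In the signalling core, of 13 IRAK, TRAF and associated genes 5 rose and 1 fell (2 without sham replicate 2 and 3 without denervated replicate 2). The tyrosine kinases of blood cells Lyn (1.43 ± 0.21), Syk (1.10 ± 0.18) and Btk (1.07 ± 0.20) led (adjusted p of at most 0.00170), followed by Irak4, the first kinase at Myd88, with 0.39 ± 0.08 (adjusted p = 0.00361). Named after their values were seen, the kinase Ripk1 was the fifth gene that rose (0.24 ± 0.07, adjusted p = 0.0296) and the ubiquitin ligase Peli1 the one that fell (-0.35 ± 0.10, adjusted p = 0.0178). Rises numbered 4 without sham replicate 3 or 4, or without denervated replicate 3 or 5, where Ripk1 was not called. Traf6, the next step, stood at 0.03 ± 0.05 (adjusted p = 0.752). Of 13 TAK1, IKK and MAP kinases 1 rose, 2 fell and 10 were not called, with a median change of -0.01. These counts were near the shares of all genes, 11.9% called higher and 16.9% lower. Map3k8 rose by 0.43 ± 0.11 (adjusted p = 0.0110), while Map2k6 fell by 0.38 (adjusted p = 0.00688) and Mapk14, the p38 kinase, by 0.31 (adjusted p = 0.0219). Falls numbered 1 without sham replicate 4 or denervated replicate 5, where Mapk14 was not called (adjusted p = 0.0517 and 0.0504), and 4 without denervated replicate 6, and 2 genes rose without denervated replicate 3.

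Of 14 transcription factors 7 rose and 0 fell, with a median of 0.29. Irf7, the master factor of type I interferon induction, rose by 3.19 ± 0.51 (adjusted p = 0.000647), from 6.35 to 7.33 in sham to 8.11 to 12.21 in denervated arrays, with the highest value in denervated replicate 6 and the lowest in replicate 3. Spi1, which encodes PU.1, rose by 1.42 ± 0.18 (adjusted p = 0.000200), Irf8, a factor of myeloid development, by 1.32 ± 0.21 and Irf5 by 0.86 ± 0.16 (adjusted p of at most 0.00151 for both). Nfkb1 rose by 0.24 ± 0.08 (adjusted p = 0.0468), a call lost when sham replicate 1, 2, 3, 5 or 6, or else denervated replicate 4, 5 or 6, was left out (adjusted p of 0.0581 to 0.0945). The NF-kappaB subunit Rela (-0.03 ± 0.05, adjusted p = 0.691) and Irf3 (0.01 ± 0.05, adjusted p = 0.900) were not called.

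Of 19 negative regulators 8 rose and 0 fell. The phosphatases Inpp5d (1.11 ± 0.15, adjusted p = 0.000282) and Ptpn6 (0.97 ± 0.18, adjusted p = 0.00157), both of blood cells, and the NF-kappaB inhibitor Nfkbie (0.70 ± 0.14, adjusted p = 0.00282) were among them. Tnip3 rose by 0.84 ± 0.26 (adjusted p = 0.0265), a call lost when sham replicate 6, denervated replicate 4 or denervated replicate 5 was left out (0.0515 to 0.0577). Nfkbia, the classic feedback target of NF-kappaB, stood at -0.07 ± 0.08 (adjusted p = 0.556).

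Of 24 cytokine and enzyme targets 14 rose, 1 fell and 9 were not called. The chemokines Cxcl10 (2.20 ± 0.57, adjusted p = 0.0112), Ccl3 (2.20 ± 0.33, adjusted p = 0.000511) and Ccl2 (1.91 ± 0.42, adjusted p = 0.00457) and the costimulator Cd80 (1.82 ± 0.20, adjusted p = 9.65e-05) rose most. Among the classic inflammatory cytokines Il1b rose by 0.88 ± 0.23 (adjusted p = 0.0121), with denervated replicate 6 at 7.36 and the sham values between 5.03 and 5.69. Il6 (0.43 ± 0.13, adjusted p = 0.0233) and Tnf (0.37 ± 0.11, adjusted p = 0.0279) rose by less. Ccl3, Il1b, Il6 and Tnf were dim, with sham means of 4.93, 5.36, 4.61 and 5.55, below the array medians. The call of Il6 was lost without sham replicate 4 or denervated replicate 4 (adjusted p = 0.0504 and 0.0532), and that of Tnf when sham replicate 3, 5 or 6, or else denervated replicate 5, was left out (0.0567 to 0.0652). The gene that fell was Il12a (-1.06 ± 0.27, adjusted p = 0.0105), named after its value was seen.

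Of 11 measured genes for endogenous ligands of these receptors 4 rose and 0 fell (1 fell without denervated replicate 6). The matrix genes Vcan (2.17 ± 0.32, adjusted p = 0.000427), Fn1 (1.60 ± 0.19, adjusted p = 0.000142) and Bgn (0.85 ± 0.09, adjusted p = 8.57e-05), whose protein products or fragments are described as ligands of Tlr2 or Tlr4, rose without overlap between groups. S100a8, a calcium-binding protein of neutrophils and monocytes and a described ligand of Tlr4, rose by 0.63 ± 0.13 (adjusted p = 0.00275) but was dim, with means of 3.53 and 4.16. Median change of this list was 0.14, against -0.04 over all genes.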

How the data were processed

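Total RNA of 12 rat bladder samples was labelled with biotin and read on 1 array each. The authors deposited log2 expression values of 36685 probe sets, made by RMA in Affymetrix Expression Console 1.4.1.46, per the submitters' processing notes; the order of other steps and the genome build are not stated by the labels or notes used. Array medians were 5.82 to 5.90. RMA pulls the arrays to 1 distribution and gives no detection call, so changes of dim genes may be compressed, and the number of arrays limits precision. Groups and replicate numbers came from the sample titles.

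Of the probe sets 18511 carried 1 gene symbol, 575 several and 17599 none; 18394 of those with 1 symbol were matched to RefSeq (GRCr8) by gene ID and 0 symbols changed. The brightest probe set stood for each of 18166 genes. Denervated minus sham was fitted with limma 3.58.1 in R 4.3.3 (lmFit, eBayes, two-sided, Benjamini-Hochberg over all genes, threshold 0.05), and the script was checked on simulated data. "Rose", "fell" and "called" refer to that threshold. The fit against the macrophage mean subtracted the mean of 20 genes from every gene on each array before the same test.

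All members are named; so are up to 4 called genes of largest change per pathway list, 24 pathway genes whatever their values and 3 most alike genes per member. Ticam1, Tnfaip3 and Hmgb1 of those 24 were not analysed here. Markers of cell types were named as examples after their values were seen. Members and lists were chosen with earlier results of these data known.

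Alternatives were repeated quantile normalization, median centring, 2 filters on dim genes, trend and robust variance, array weights, an exact rank-sum test, treat, the mean of probe sets, all probe sets, a block for the replicate number, and omission of each array in turn. Replicate numbers are not stated to pair the samples, and correlations of same-numbered deviations ran from -0.11 to 0.10. Such correlations cannot settle whether same-numbered samples were handled together. MicroRNA was not analysed here.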

Additional observations from a re-analysis of the deposited data

Results flagged for a closer look

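In the denervated group, Tlr4 stood apart in replicate 6, at 9.66 against 8.35 to 8.68 in the other 5 arrays. The gap to the nearest array took up 0.747 of the group's range, above Dixon's 95% critical value for 6 samples. It was the 1 group so marked of 16 tested (8 genes in 2 groups), and chance marks about 1 group in 20. Its cause was not tested.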

How the results depend on the processing

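Members called lower numbered 0 under every alternative run, and members called higher 7 under all but 3. Treat called 3 higher, by its requirement of more than a 1.2-fold change. Restricting the test to the brighter 50% of genes gave 4, since 5 members were then tested. Without denervated replicates 2 and 6 together, chosen after seeing the data, 8 were higher. Leaving out 1 array at a time gave 7 higher each time, 55 to 67 pathway genes called (62 with all arrays) and 6 or 7 members off the macrophage mean. With the replicate number as a block 7 members were higher and 58 pathway genes were called. Of the genes named, the block ended the calls of Tlr12 (adjusted p = 0.0562), Mapk14 (0.0512), Nfkb1 (0.0766) and Tnf (0.0746), and of 6 sham arrays 1 correlated best with its own number. No member changed direction under any alternative run. Median centring moved the median change of all genes from -0.04 to -0.06. Of all calls 41.3% were higher, 34.4% after median centring and 60.4% by treat (756 higher and 496 lower).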
